A study of Homo sapiens with 2 samples.

Results

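The genes described here are 10 members of the fibroblast growth factor (FGF) system: the receptors FGFR1, FGFR2, FGFR3 and FGFR4, the ligands FGF2 and FGF9, the FGF homologous factor FGF13, the binding protein FGFBP1, and the Sprouty inhibitors SPRY2 and SPRY4. They were taken by symbol from an RNA-Seq table of 21382 genes, and all 10 were found, each at 1 locus. The table holds 2 untreated human prostate cancer (PCa) cell lines with 1 library each, so no value has a replicate error, no test between the cell lines was possible and no p-value is given. MDA PCa 2b cells were grown in a serum-containing F-12 medium with cholera toxin, epidermal growth factor (EGF), hydrocortisone, phosphoethanolamine, selenite and insulin. RC77 T/E cells were grown in a keratinocyte medium, Keratinocyte-SFM, with EGF and bovine pituitary extract. The study concerned the interaction of PCa cells with platelets, and the libraries hold the cancer cells alone. Cell line and medium cannot be told apart.

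FGFs are secreted proteins that bind receptor tyrosine kinases together with heparan sulfate chains on the cell surface. The occupied receptor signals through the docking protein FRS2, RAS and the kinase ERK, and ERK switches on its own inhibitors, among them the Sprouty proteins. FGFR1 to FGFR3 are each made in splice forms that bind different ligands, and in the prostate FGFs carry signals between stroma and epithelium. The values below are per gene, so splice forms were not told apart.

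Expression was deposited in TPM, transcript abundance scaled for transcript length and library total, which therefore allows levels of different genes to be compared within a library. In the table many values of 1 TPM or more had lost the decimal mark. It was put back with the mean and the standard error that the authors also deposited. This fixed the values of 8 of the 10 genes. For FGFR3 and SPRY4 the mark can stand at 2 positions, a factor of 10 apart and moving in both cell lines together, so that the ratio between the lines is known but the level is not. Both values are given for them. Where a sentence gives a pair of levels without naming the lines, MDA PCa 2b comes first. TPM keeps no read numbers, the depth of either library is unknown, and no detection limit can be given for a value near 0. EEF1A1, a translation factor that every cell uses, is listed at 0 in MDA PCa 2b, so a gene listed at 0 may be a failed estimate.

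The marker genes of the cell types differed between the libraries. The 5 prostate basal markers were each higher in RC77 T/E by 2-fold or more, with KRT5 at 4027 TPM. Among the luminal markers, TMPRSS2, a serine protease gene, had 482.9 TPM in MDA PCa 2b against 0.108 TPM in RC77 T/E. For KLK3, the gene of prostate-specific antigen, the MDA PCa 2b value was 5323 TPM, and the RC77 T/E value is listed at 0. HOXB13, a homeobox gene, is also listed at 0 there, with at least 3.02 TPM in MDA PCa 2b. The luminal keratins did not follow, since KRT18 had 320.5 and 324.8 TPM and KRT8 stood 1.23 times as high in MDA PCa 2b. The summed TPM of 8 stromal markers was 4.09 in MDA PCa 2b against 12.2 in RC77 T/E, where COL1A1 made up 8.24 TPM. Of the 7 endothelial and leukocyte markers only CD14 reached 1 TPM, at 4.92 TPM in RC77 T/E. The part of cell identity in the FGF values was not tested.

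In MDA PCa 2b, 4 of the 10 FGF genes reached 1 TPM (FGFR1, FGFR3, FGFR4 and SPRY4), and in RC77 T/E 6 did (FGFR2, FGFR3, FGF2, FGFBP1, SPRY2 and SPRY4). Among all 21382 genes that level was reached by 49.6% in MDA PCa 2b, against 52.8% in RC77 T/E. FGFR3 and SPRY4 reached 1 TPM in both cell lines at either position of their decimal marks. The 2 values averaged 1 TPM or more for 7 of the 10 genes. Of these, 5 were higher in RC77 T/E by 2-fold or more (FGFR2, FGFR3, FGF2, FGFBP1 and SPRY2), beside 19.4% of the 11624 genes with such a mean. The remaining pair, FGFR1 and SPRY4, were higher in MDA PCa 2b by 2-fold or more, beside 20.0% of those genes. In either direction 39.3% of the 11624 genes differed at least 2-fold. The fold was counted on the log2 scale after adding 1 TPM to each value, with unsettled decimal marks at their lowest position. The median log2 ratio, RC77 T/E over MDA PCa 2b, was 1.81 for the 7 genes and -0.15 for all 11624. The remaining 3 of the 10 genes, FGFR4, FGF9 and FGF13, had means under 1 TPM. A gene that reached that mean through 1 line alone had to differ between the lines, so these counts only describe the 7 genes.

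**Figure D1:**
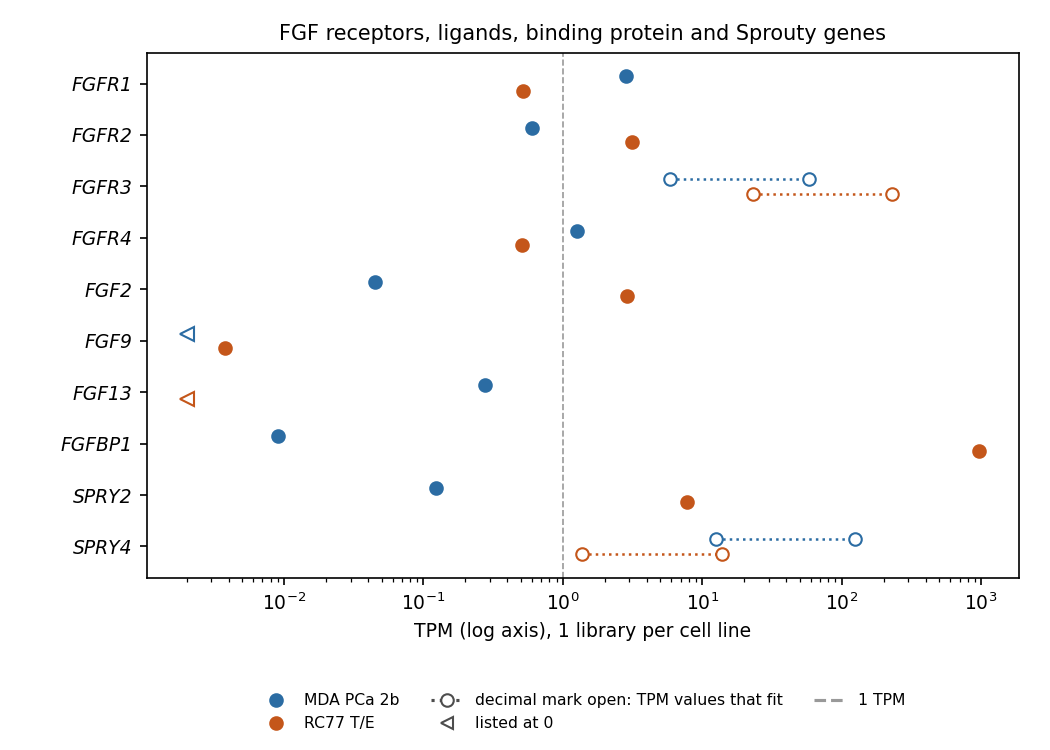
TPM on a log axis for each of the 10 genes in MDA PCa 2b (blue) and RC77 T/E (orange), 1 library per cell line, with a dashed line at 1 TPM. Open circles joined by dots are the values that fit where the decimal mark is not settled, and triangles at the left edge mark genes listed at 0. FGFBP1 spans the widest gap, from 0.00911 to 963.5 TPM, and FGFR1, FGFR4, FGF13 and SPRY4 lie further right in MDA PCa 2b.

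FGFR3 was the highest of the receptors in both cell lines. FGFR3 (ENSG00000068078, chromosome 4 of GRCh38, 1793293 to 1808872, plus strand) had 5.83 or 58.3 TPM in MDA PCa 2b against 22.99 or 229.9 TPM in RC77 T/E. It stood 3.94 times as high in RC77 T/E at either position, and the log2 ratio with 1 TPM added was 1.81 or 1.96. Even at its lowest position FGFR3 stood above the other receptors in both libraries. How many genes of the library exceed it depends on the decimal marks of many genes, between 604 and 8873 for MDA PCa 2b, between 230 and 7206 for RC77 T/E.

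FGFR2, the receptor whose epithelial splice form binds stromal FGF7 and FGF10, was higher in RC77 T/E. FGFR2 (ENSG00000066468, chromosome 10, 121478332 to 121598458, minus strand) had 0.605 TPM in MDA PCa 2b against 3.15 TPM in RC77 T/E, 5.21 times as high, a log2 ratio of 1.37. It thus lay under 1 TPM in MDA PCa 2b only.

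FGFR1 and FGFR4 ran the other way. FGFR1, known as a receptor of mesenchymal cells (ENSG00000077782, chromosome 8, 38400215 to 38468834, minus strand), had 2.84 TPM in MDA PCa 2b against 0.515 TPM in RC77 T/E. It stood 5.51 times as high in MDA PCa 2b, a log2 ratio of -1.34. FGFR4, the receptor that signals for FGF19 with the co-receptor beta-Klotho (ENSG00000160867, chromosome 5, 177086905 to 177098144, plus strand), had 1.27 TPM in MDA PCa 2b against 0.508 TPM in RC77 T/E. The MDA PCa 2b value was thus 2.50 times the other, but its log2 ratio with 1 TPM added was -0.59, short of 2-fold on that scale, and with 0.1 TPM added it was -1.17. Its mean over both lines was 0.888 TPM. FGFR1 and FGFR4 had nearly equal levels in RC77 T/E.

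The sum of the 4 receptors was 10.5 TPM in MDA PCa 2b against 27.2 TPM in RC77 T/E with FGFR3 at its lower position, and 63.0 and 234.1 TPM with FGFR3 at its higher position. FGFR3 made up 55.3% or 92.5% of that sum in MDA PCa 2b, against 84.6% or 98.2% in RC77 T/E. At the lower position, FGFR1 was second in MDA PCa 2b with 26.9% of the sum, followed by FGFR4 with 12.0% and FGFR2 with 5.73%. In RC77 T/E the second receptor was FGFR2 with 11.6%, and FGFR1 and FGFR4 had 1.90% and 1.87%. The order of the receptors after FGFR3 therefore differed, with FGFR2 last in MDA PCa 2b and second in RC77 T/E.

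**Figure D2:**
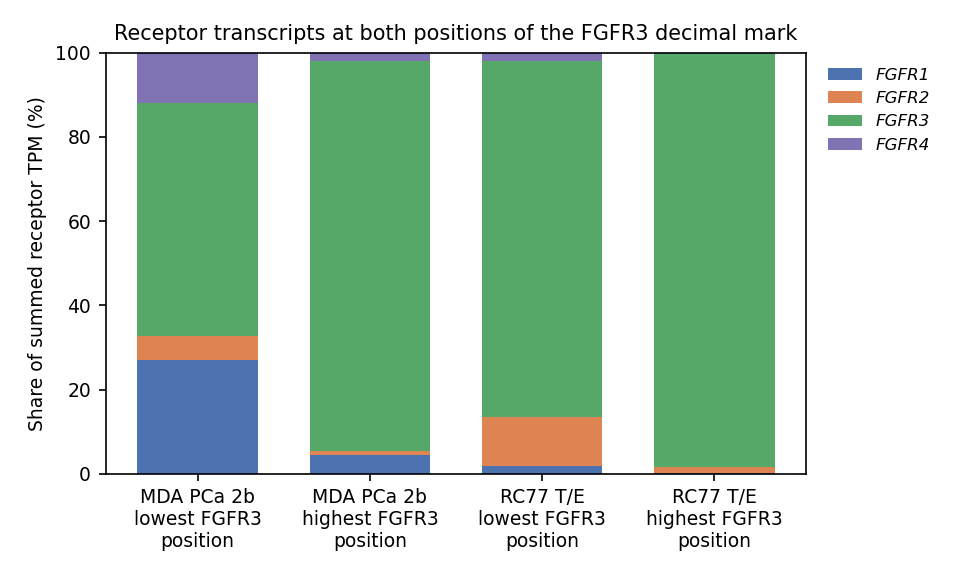
Share of each receptor gene, in percent, of the summed TPM of FGFR1 to FGFR4 in both cell lines, 1 library each, with FGFR3 at the lower or the higher position of its decimal mark. FGFR3 fills most of every bar, from 55.3% to 98.2%, and the remainder is led by FGFR1 in MDA PCa 2b and by FGFR2 in RC77 T/E.

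FGF2 was the only ligand of the group with a value of 1 TPM or more. FGF2, or basic FGF, is a ligand that acts on several receptors and is bound and stored by heparan sulfate (ENSG00000138685, chromosome 4, 122826708 to 122898236, plus strand). It had 0.0446 TPM in MDA PCa 2b against 2.90 TPM in RC77 T/E. The ratio was 65.2 in favour of RC77 T/E, and the log2 ratio was 1.90 with 1 TPM added and 4.38 with 0.1 TPM added. In RC77 T/E its level was close to that of FGFR2.

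FGF9 and FGF13 each had a value under 1 TPM in a single cell line and are listed at 0 in the other, which may be a failed estimate. FGF9, a secreted ligand (ENSG00000102678, chromosome 13, 21671073 to 21704498, plus strand), is listed at 0 in MDA PCa 2b and at 0.00375 TPM in RC77 T/E. FGF13 belongs to the FGF homologous factors, which stay inside the cell and bind voltage-gated sodium channels. FGF13 (ENSG00000129682, chromosome X, 138614727 to 139222777, minus strand) had 0.275 TPM in MDA PCa 2b, with a listing at 0 for RC77 T/E. No fold is given for either gene.

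FGFBP1 showed the widest difference of the 10 genes. FGFBP1 encodes a secreted carrier that releases FGFs such as FGF2 from the matrix (ENSG00000137440, chromosome 4, 15935577 to 15938740, minus strand). It had 0.00911 TPM in MDA PCa 2b against 963.5 TPM in RC77 T/E, and both decimal marks are settled. FGFBP1 was exceeded by 123 to 159 of the 21382 genes in RC77 T/E and by 14877 in MDA PCa 2b. The log2 ratio was 9.90 with 1 TPM added. The plain ratio, 105804, rests on a value near 0 in MDA PCa 2b and is given only as a description. FGFBP2, a relative that lies 21.5 kb away on the chromosome, is listed at 0 in both lines.

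The Sprouty genes went opposite ways. SPRY2 (ENSG00000136158, chromosome 13, 80335976 to 80341126, minus strand) had 0.123 TPM in MDA PCa 2b against 7.80 TPM in RC77 T/E. It stood 63.3 times as high in RC77 T/E, a log2 ratio of 2.97. SPRY4 (ENSG00000187678, chromosome 5, 142310427 to 142326455, minus strand) had 12.5 or 125.5 TPM in MDA PCa 2b against 1.37 or 13.7 TPM in RC77 T/E. It stood 9.13 times as high in MDA PCa 2b at either position, with a log2 ratio of -2.51 or -3.10. SPRY4 was the highest of the 10 genes in MDA PCa 2b if its mark and that of FGFR3 stand at the same position. In that library it lay above SPRY2 at either position, whereas in RC77 T/E the order of SPRY2 and SPRY4 depends on the mark of SPRY4.

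Other genes overlap some of these loci in release 29 of the GENCODE annotation, and whether the TPM values use the strand of the reads is not stated. The 3' end of FGF2 overlaps NUDT6 on the opposite strand. NUDT6 had at least 7.98 TPM in MDA PCa 2b against at least 3.82 TPM in RC77 T/E, and so was higher in the line in which FGF2 was lower. FGFR1 overlaps LETM2 on the opposite strand, which had 0.320 TPM in MDA PCa 2b against 3.73 TPM in RC77 T/E, again the reverse of FGFR1. FGF13 overlaps its antisense transcript FGF13-AS1 and the microRNA gene MIR504, both listed at 0 in both lines. SPRY4 overlaps the antisense transcript SPRY4-AS1, which was not analysed here. Further noncoding genes and pseudogenes were not analysed here inside FGFR1, FGF2, FGF13 and SPRY4. FGFR2, FGFR3, FGFR4, FGF9, FGFBP1 and SPRY2 overlap no annotated gene in that release. The part of shared reads in these values was not tested.

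Of the 5 genes higher in RC77 T/E by 2-fold or more, 3 have a RefSeq promoter window on GRCh38.p14 whose 250 bases before the start lie wholly outside the gene as listed: FGFR3, FGFBP1 and SPRY2. They are printed 5′ to 3′ on the strand of the gene to set the promoter of FGFBP1 beside those of genes that were higher in the same line. Capitals mark the GC box GGGCGG on either strand. The regions are chr4:1793043-1793292 on the plus strand for FGFR3, chr4:15938741-15938990 on the minus strand for FGFBP1 and chr13:80341127-80341376 on the minus strand for SPRY2.
FGFR3: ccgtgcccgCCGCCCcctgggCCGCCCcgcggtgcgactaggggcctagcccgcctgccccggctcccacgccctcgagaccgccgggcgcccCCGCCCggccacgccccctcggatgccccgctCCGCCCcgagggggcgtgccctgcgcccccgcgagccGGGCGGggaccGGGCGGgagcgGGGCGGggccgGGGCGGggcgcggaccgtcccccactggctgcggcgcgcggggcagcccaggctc
FGFBP1: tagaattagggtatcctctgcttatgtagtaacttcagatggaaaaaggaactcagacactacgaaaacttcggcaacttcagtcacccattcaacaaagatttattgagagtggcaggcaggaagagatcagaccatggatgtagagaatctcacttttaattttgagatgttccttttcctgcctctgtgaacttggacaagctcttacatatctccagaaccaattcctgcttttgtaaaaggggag
SPRY2: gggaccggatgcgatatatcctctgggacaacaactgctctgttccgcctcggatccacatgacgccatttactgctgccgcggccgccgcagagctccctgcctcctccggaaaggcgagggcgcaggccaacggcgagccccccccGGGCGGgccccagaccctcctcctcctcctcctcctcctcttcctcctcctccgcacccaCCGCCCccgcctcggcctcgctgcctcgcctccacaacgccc

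The FGFBP1 sequence holds 2 CpG pairs and 40.8% G and C, the SPRY2 sequence 23 pairs and 70.4%, and the FGFR3 sequence 40 pairs and 86.8%. In the full window of 300 bases, FGFBP1 has 3 CpG pairs, and 24.5% of 35116 RefSeq promoters have as few. The median over those promoters is 14. The first listed windows of FGF2 and FGFR2, which were also higher in RC77 T/E, have 41 and 52 CpG pairs. The further listed windows of FGFR2 have 7, 7, 8 and 5, and those of SPRY2 have 15 and 6. Windows with few CpG pairs were thus not limited to FGFBP1. The GC box occurs 8 times in the printed FGFR3 sequence, 2 times in that of SPRY2 and not in that of FGFBP1. Shares of promoters holding a motif are over full windows of 300 bases, and 45.0% hold the GC box. In the first listed full windows of these 3 genes the motif counts are the same as in the printed sequences. Neither the TATA box TATAAA, held by 11.5% of promoters, nor the AP-1 motif TGANTCA, held by 7.71%, is in any of the 3 printed sequences. The motifs were searched on both strands, and they do not overlap one another in the printed sequences. RefSeq windows were matched for 8 of the 10 genes. These are descriptions of the letters only.

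Of 16 further genes for secreted FGFs, FGF5 alone reached 1 TPM in a cell line. FGF5, best known as an inhibitor of hair growth, is listed at 0 in MDA PCa 2b and had 2.80, 28.0 or 280.4 TPM in RC77 T/E. FGF4, FGF6, FGF10 and FGF16 are listed at 0 in both lines. FGF7, the stromal ligand of FGFR2, had 0.0263 and 0.0237 TPM. FGF19, FGF4 and FGF3 follow CCND1 in that order on chromosome 11 with gaps of 43.8, 67.0 and 34.6 kb, and none of the 3 exceeded 0.0330 TPM in either line, while CCND1, a cell cycle regulator, stood 1.47 times as high in MDA PCa 2b, at 10.3 or 102.6 TPM there.

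The intracellular FGF homologous factors differed among themselves. FGF11 had 0.333 TPM in MDA PCa 2b against 36.1 TPM in RC77 T/E, 108.2 times as high. FGF12 had 1.83 TPM in MDA PCa 2b against 0.0183 TPM in RC77 T/E, 99.7 times as high in MDA PCa 2b, the line in which FGF13 also had a value above 0. FGF14 stayed at or under 0.0506 TPM.

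Among 8 genes for co-receptors and binding partners, 5 had a mean of at least 1 TPM. Of these 5, 2 were higher in RC77 T/E by 2-fold or more and 3 were as much higher in MDA PCa 2b. Over all genes with such a mean the shares were 19.4% and 20.0%. The median log2 ratio of the 5 genes was -1.28. Genes that reached that mean through 1 line alone had to differ between the lines, so these counts only describe the 5 genes. FLRT2 and FLRT3 encode leucine-rich membrane proteins that bind FGF receptors. FLRT3 had 0.0448 TPM in MDA PCa 2b against 25.8 TPM in RC77 T/E, and FLRT2 had 0.00464 and 15.7 TPM. The 3 genes higher in MDA PCa 2b were KLB, FGFRL1 and FGFBP3. KLB, which encodes beta-Klotho, had 3.70 TPM in MDA PCa 2b against 0.0304 TPM in RC77 T/E, so it was higher in the same line as FGFR4. FGFRL1, a receptor without a kinase domain, stood 2.65 times as high in MDA PCa 2b, at 16.3 or 163.5 TPM there and 6.16 or 61.6 TPM in RC77 T/E. FGFBP3, a relative of FGFBP1, stood 4.43 times as high in MDA PCa 2b, the opposite direction to FGFBP1.

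Heparan sulfate carriers differed in both directions, and the enzymes past 2-fold were higher in RC77 T/E. Of 11 genes for proteoglycan cores, 9 had a mean of at least 1 TPM, with a median log2 ratio of 1.11. Of these 9, 5 were higher in RC77 T/E by 2-fold or more and 2 were as much higher in MDA PCa 2b. Over all genes with such a mean the shares were 19.4% and 20.0%. The core with the highest mean was SDC1, or syndecan-1, at 137.3 TPM in MDA PCa 2b against 265.8 TPM in RC77 T/E, a log2 ratio of 0.95. SDC2 had 30.9 TPM in MDA PCa 2b against 0.230 TPM in RC77 T/E, whereas GPC1, or glypican-1, stood 32.2 times as high in RC77 T/E. Of 10 genes for enzymes of heparan sulfate, 9 had a mean of at least 1 TPM, with a median log2 ratio of 0.33. Of these 9, 4 were higher in RC77 T/E by 2-fold or more and 0 were as much higher in MDA PCa 2b, beside the same shares. In both lists some genes reached that mean through 1 line alone and so had to differ, and the counts only describe the genes listed. SULF2, which removes sulfate groups from heparan sulfate outside the cell, had 0.0400 TPM in MDA PCa 2b against 115.8 TPM in RC77 T/E. HPSE, which encodes heparanase, had 0.0835 and 5.15 TPM.

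Most genes of the signaling chain below the receptors were under 2-fold apart. Of 16 genes for adaptors and the RAS-ERK cascade, 15 reached 1 TPM in both lines, and 13 were under 2-fold apart. The docking protein gene FRS2 had 5.51 TPM in MDA PCa 2b against 5.27 TPM in RC77 T/E. MAP2K2, with the highest mean of the group at the lowest positions, stood 1.33 times as high in MDA PCa 2b. The 3 genes that differed, each higher in RC77 T/E, were SHC1, GAB1 and PLCG1, which encode an adaptor, a docking protein and a phospholipase. At the lowest decimal positions none was as much higher in MDA PCa 2b, a count that depends on unsettled decimal marks. Over the 11624 genes, 19.4% were higher in RC77 T/E by 2-fold or more and 20.0% in MDA PCa 2b. SHC1 stood 9.43 times as high in RC77 T/E and PLCG1 2.83 times. GAB1 had 0.808 and 3.06 TPM. The median log2 ratio was -0.28 over 16 genes.

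**Figure D3:**
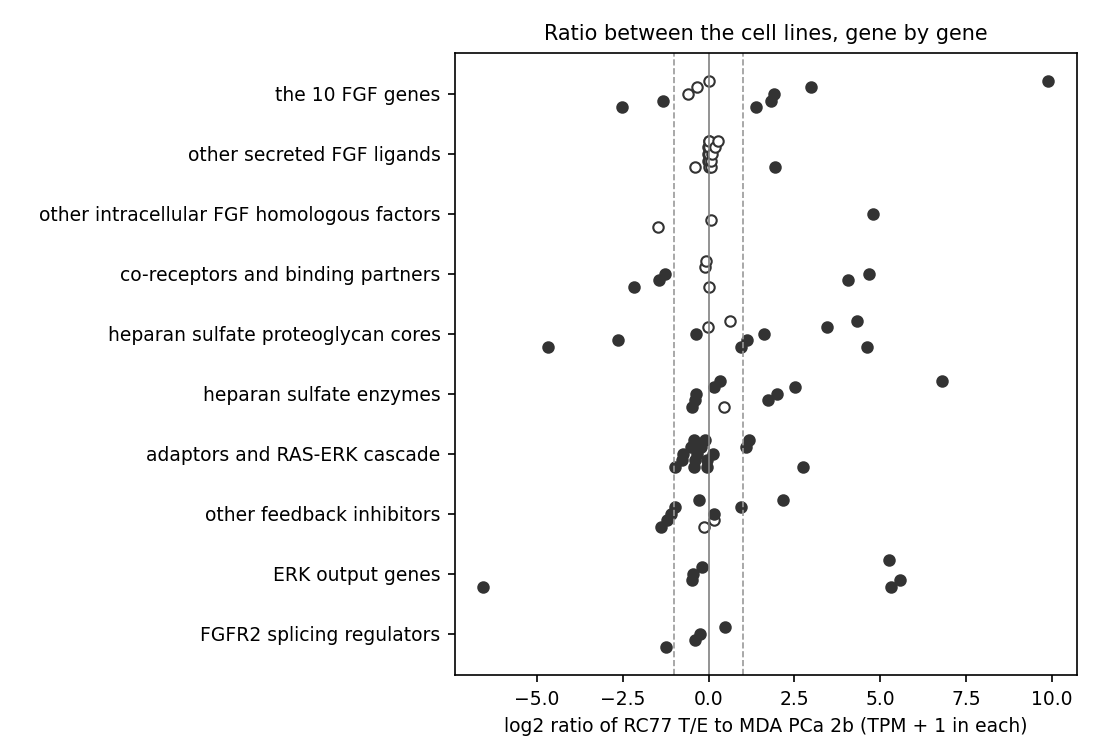
Log2 ratio (RC77 T/E over MDA PCa 2b) for each gene, 1 TPM added to each value and unsettled decimal marks at the lowest position, by gene list. Filled points have a mean of 1 TPM or more in the pair of lines, open points a lower mean, and dashed lines mark a 2-fold difference. The 10 FGF genes range from -2.51 (SPRY4) to 9.90 (FGFBP1). Between the dashed lines lie 13 of the 16 adaptor and RAS-ERK genes, beside 7050 of all 11624 genes with a mean of 1 TPM or more.

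Among the other feedback inhibitors, SPRY1 went with SPRY4 and not with SPRY2. Of 10 such genes, 8 reached 1 TPM in both lines, 1 was higher in RC77 T/E by 2-fold or more and 3 were as much higher in MDA PCa 2b, with a median log2 ratio of -0.64 over 8 genes. Both counts depend on unsettled decimal marks. For comparison, 19.4% of the 11624 genes passed 2-fold toward RC77 T/E, 20.0% toward MDA PCa 2b and 39.3% in either direction. DUSP5, another phosphatase of ERK, stood 2.76 times as high in MDA PCa 2b, with a log2 ratio of -0.99 or -1.40. CBL, which encodes a ubiquitin ligase of receptor kinases, stood 2.21 times as high in RC77 T/E, with a log2 ratio of 0.95 or 1.12. SPRY1 stood 2.81 times as high in MDA PCa 2b, at 8.07 TPM or 10 or 100 times that, beside 2.87 TPM or the same multiple in RC77 T/E. SPRY3 stayed at or under 0.150 TPM in both. SPRED2, a relative of the Sprouty genes, stood 2.22 times as high in MDA PCa 2b, and DUSP4, which encodes a phosphatase of ERK and related kinases, 3.20 times. DUSP6, a phosphatase that acts on ERK and is widely read as a marker of its activity, stood 7.21 times as high in RC77 T/E, at 1.28 TPM or 10 or 100 times that in MDA PCa 2b. SPRED1 had 8.78 and 6.98 TPM.

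The genes that ERK is known to induce differed in both directions. EGR1 had 0.362 TPM in MDA PCa 2b against 53.4 TPM in RC77 T/E, FOSL1 had 0.147 and 43.2 TPM, and PHLDA1 had 0.472 and 68.8 TPM. ETV1, a transcription factor of the ETS family, had 246.7 TPM in MDA PCa 2b against 1.61 TPM in RC77 T/E. ETV4 and ETV5, its close relatives, were 1.16 and 1.41 times as high in MDA PCa 2b. Of these 7 genes, 3 were higher in RC77 T/E by 2-fold or more and 1 was as much higher in MDA PCa 2b. The matching shares of the 11624 genes were 19.4% and 20.0%. Over the 7 genes the median log2 ratio was -0.20.

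**Figure D4:**
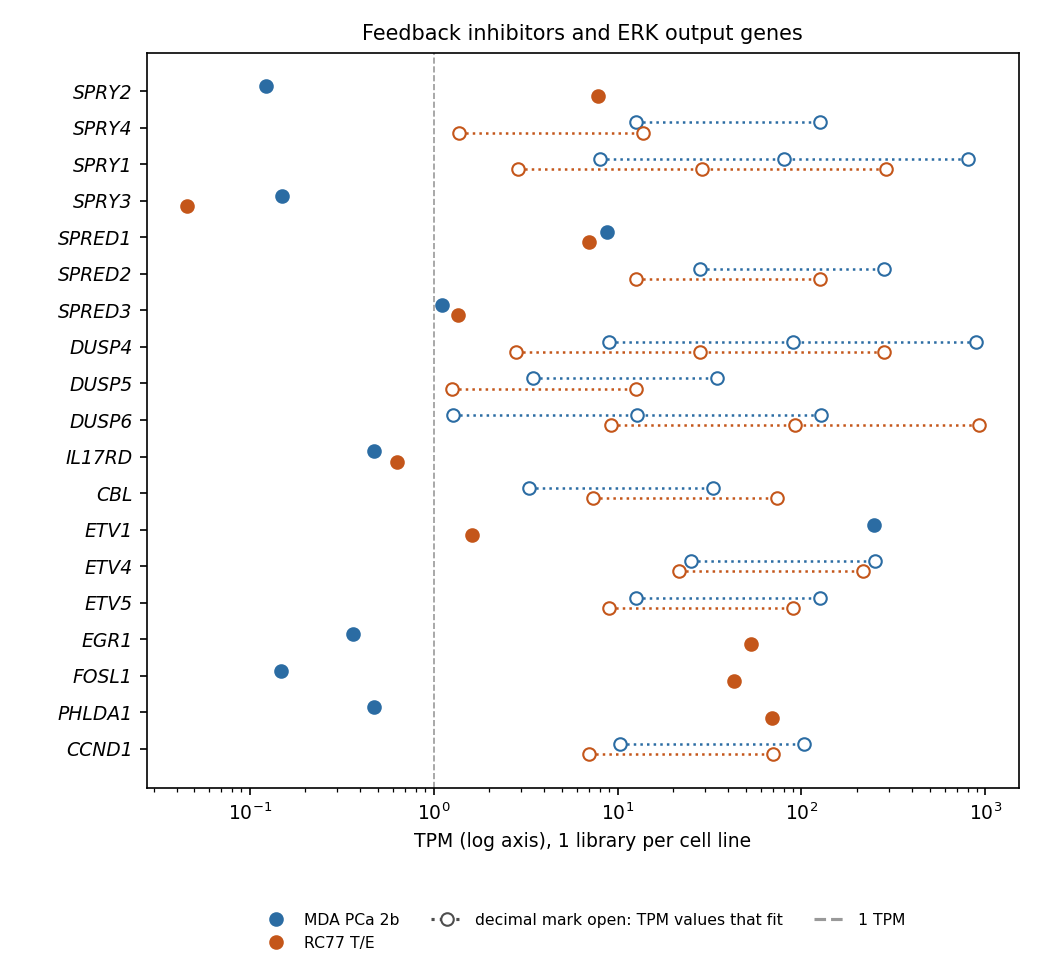
TPM on a log axis of the Sprouty, SPRED, DUSP and other inhibitor genes and of the ERK output genes in MDA PCa 2b (blue) and RC77 T/E (orange), 1 library per cell line, with a dashed line at 1 TPM. Open circles joined by dots are the values that fit where the decimal mark is not settled. At the same position of the mark SPRY2, DUSP6, CBL, EGR1, FOSL1 and PHLDA1, among others, lie further right in RC77 T/E. Further right in MDA PCa 2b lie, among others, SPRY4, SPRY1, SPRED2, DUSP4, DUSP5 and ETV1.

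Regulators of FGFR2 splicing reached 1 TPM in both lines for 4 of 4 genes. ESRP1 and ESRP2 promote the epithelial splice form. ESRP2 stood 3.24 times as high in MDA PCa 2b and ESRP1 1.39 times, while RBFOX2 stood 1.40 times as high in RC77 T/E. Of the 4 genes, 1 was at least 2-fold apart, and the median log2 ratio was -0.34. Among the 11624 genes, 39.3% were as far apart in either direction.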

How the data were processed

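RNA-Seq of total RNA from untreated cultures of RC77 T/E and of MDA PCa 2b, 1 directional paired-end library each, was analysed. The submitters' processing notes name CASAVA, FastQC 0.11.9, Trimmomatic 0.38, Salmon 1.2.0 and GRCh38, without their roles. The deposited values are TPM, computed by the authors, and were treated as a score until the decimal mark was restored. Of 22791 rows, 10361 MDA PCa 2b and 11082 RC77 T/E values carry commas in place of the mark. Every position with up to 3 digits left of the mark and no fewer than 3 right of it was tried, and those matching the deposited mean and standard error were kept. This left 1 position in 16284 rows and 2 or 3 in 6507. Repeated loci were used once, and loci of 1 symbol were summed. Ratios are log2 with a pseudocount of 1 TPM, which shrinks the ratios of genes near 0. No test could be made. Depth is unknown.

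The 10 genes and the gene lists were chosen with earlier results of these data known. Named from each list are its highest gene and the 2 with the largest ratio among genes at 1 TPM or more in a line, and genes needed to state a small count. FRS2, FGF4, FGF6, FGF7, FGF10, FGF14, FGF16, FGF19, FGF3, CCND1, SPRY1, SPRY3, SPRED1, DUSP5, CBL, ESRP1, ETV4, ETV5 and the overlapping genes, as well as the motifs and the markers printed, were named after their values were seen. NRAS and ANOS1 were not analysed here. Alternatives concern the pseudocount, scaling, threshold, decimal position and locus sums. Promoters are RefSeq windows on GRCh38.p14. Python 3.11.15, numpy 2.4.6 and matplotlib 3.10.9 were used.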

Additional observations from a re-analysis of the deposited data

How the results depend on the processing

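A value was counted as moved when it changed by more than 1.5 times. With a threshold of 5 TPM, 2 of the 10 genes remained in MDA PCa 2b at either decimal position, in place of 4, and 3 in RC77 T/E at the lowest position, in place of 6. The counts of FGF genes past 2-fold, 5 toward RC77 T/E and 2 toward MDA PCa 2b, were the same with a pseudocount of 0.1 TPM, centring, upper-quartile scaling, the highest decimal position, the largest locus and no filter on low values. Over all genes, centring on the median turned these counts from 2250 and 2324 into 2542 and 1880, and the share of calls toward RC77 T/E from 49.2% into 57.5%. The median log2 ratio of the FGF genes ranged up to 2.21 with 0.1 TPM. Of 50 recomputed log2 ratios of the 10 genes, 0 changed direction and 9 moved, 7 of them with the pseudocount of 0.1 TPM, which widens ratios against values near 0. Of 45 recomputed medians of the other lists 9 moved, and of 72 counts 8 moved. No paired analysis was possible because only 1 library was made of either line, and for the same reason no library could be left out. TPM gives no depth, so low values carry no interval.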
